A study of Homo sapiens with 20 samples.

Results

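The genes described here encode the hypoxia-inducible factors (HIF) and the enzymes that sense oxygen for them: the prolyl hydroxylases EGLN1, EGLN2 and EGLN3, the asparaginyl hydroxylase HIF1AN, the ubiquitin ligase receptor VHL, the oxygen-regulated subunits HIF1A, EPAS1 and HIF3A, and their partners ARNT and ARNT2. HIF1A peaks were assigned to a gene when the peak centre lay between 10 kb before its start and 10 kb past its end in the GENCODE release 44 gene records on GRCh37. This chose 37 of the 26484 peaks in 8 lists, 34 of them in hypoxia and 3 in normoxia. Where they overlapped they were joined, which gave 24 sites, numbered within each gene by position.

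HIF1A chromatin binding had been profiled by ChIP-seq, the sequencing of DNA recovered with an antibody against HIF1A, in HCT116 and RKO (colon carcinoma lines) and A549 and H460 (lung carcinoma lines). Cells were kept in normoxia or for 24 h in hypoxia at 1% O2, with no other agent. Each line had 4 ChIP libraries, 2 per condition, and 1 input library of genomic DNA, which made 20 samples. The authors merged both ChIP libraries of a line and condition before peak calling, so each value belongs to 1 merged list and has no replicate error. Per the methods, the ChIP libraries of a group were biological duplicates. The descriptions of the RKO and A549 inputs name each other's line, against the titles, and the part of this in the calls of these lines was not tested.

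In oxygenated cells the EGLN enzymes hydroxylate prolines of the HIF-α subunits, VHL then recognises the hydroxylated protein, and the proteasome degrades it. HIF1AN hydroxylates an asparagine and so blocks the contact of HIF-α with the coactivators CREBBP and EP300. When oxygen is low the subunits accumulate, pair with ARNT and bind hypoxia response elements, whose core is ACGTG or GCGTG, and some of the enzymes that inactivate HIF are themselves known HIF target genes.

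The sequences below carry the sites on which the results turn. All are from the plus strand of GRCh37, and capitals mark ACGTG or GCGTG read on either strand, so that CACGT and CACGC are copies on the minus strand. The first line is the start of EGLN1, the only gene described here with overlapping peaks in both conditions of a line, at chr1:231558030-231558058. The next pair are the intronic and upstream EGLN3 peaks, at chr14:34407644-34407784 and chr14:34529444-34529590. The fourth is the peak past HIF1A, at chr14:62217827-62217973. The fifth is the strongest EPAS1 peak, at chr2:46547514-46547660. The sixth and seventh are copies close to the peak centre at EGLN2, at chr19:41305035-41305063, and HIF1AN, at chr10:102289665-102289693. The last is the ARNT2 peak, the strongest hypoxia peak of these genes with no copy, at chr15:80786599-80786739.
EGLN1 site 1: ctgcgcgctctgCACGTacaccacggccc
EGLN3 site 1: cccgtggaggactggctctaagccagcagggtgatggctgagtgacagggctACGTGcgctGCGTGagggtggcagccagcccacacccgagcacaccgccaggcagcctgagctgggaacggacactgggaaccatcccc
EGLN3 site 3: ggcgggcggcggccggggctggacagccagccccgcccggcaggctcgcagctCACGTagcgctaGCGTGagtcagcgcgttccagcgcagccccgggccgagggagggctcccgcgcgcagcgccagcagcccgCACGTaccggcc
HIF1A site 1: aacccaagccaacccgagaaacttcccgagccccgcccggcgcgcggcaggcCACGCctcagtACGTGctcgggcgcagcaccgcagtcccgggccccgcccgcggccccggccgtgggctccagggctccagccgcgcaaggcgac
EPAS1 site 2: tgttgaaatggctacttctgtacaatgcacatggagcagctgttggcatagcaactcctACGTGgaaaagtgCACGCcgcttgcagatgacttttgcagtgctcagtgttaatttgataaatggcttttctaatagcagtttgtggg
EGLN2 site 2: gcggggcgcggtCACGTGcccaccgggcg
HIF1AN site 1: gagccgggccaaACGTGacggaggaagcc
ARNT2 site 1: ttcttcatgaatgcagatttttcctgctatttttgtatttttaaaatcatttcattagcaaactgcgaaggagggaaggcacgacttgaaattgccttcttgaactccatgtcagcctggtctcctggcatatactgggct

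It was first asked how many of the 10 genes carried a HIF1A peak in each list. In hypoxia H460 had 7, HCT116 and RKO had 6 each, and A549 had 5. Over all 20176 protein-coding genes, with windows set the same way, the share with a peak was 18.4% for H460, 19.9% for HCT116, 28.3% for RKO and 21.5% for A549. In at least 1 hypoxia list 9 of the 10 genes had a peak, against 51.7% of protein-coding genes, and VHL was the exception. In all 4 hypoxia lists EGLN1, EGLN3, HIF1A and EPAS1 had a peak, against 3.26% of protein-coding genes. Without the margin of 10 kb the count of 4 genes fell to 2, EGLN3 and EPAS1. A long gene has a wide window, and the median window of the 10 genes was 75.6 kb. Per Mb of window, these genes held 5.38 hypoxia peaks in both colon lines, 6.14 in A549 and 9.22 in H460. The genome held 1.32 for HCT116, 3.02 for RKO, 1.78 for A549 and 1.28 for H460. These genome values are over the full length of the chromosomes, between genes as well. Windows of other genes were not measured per Mb, so the difference cannot be read as particular to these genes.

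In normoxia EPAS1 had a peak in HCT116 and in H460, EGLN1 had one in A549, and none of the 10 genes had one among the 2092 peaks of RKO. The background was 1.29% of protein-coding genes for HCT116, 6.93% for RKO, 2.76% for A549 and 3.81% for H460. The number of genes with a peak was higher in hypoxia in 4 of 4 lines, by a mean of 5.25 ± 0.957 genes (SD, n = 4 lines, p = 0.125 in a two-sided exact permutation test that flips the sign of each line, which can give no smaller p with 4 lines). The background share was also higher in hypoxia in each line.

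**Figure D1:**
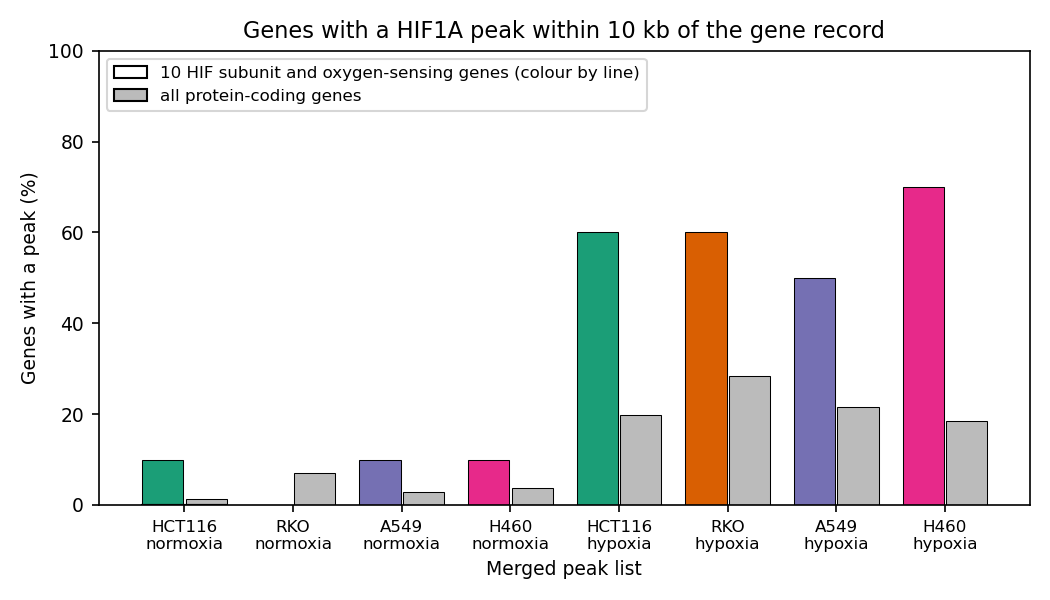
Percentage of the 10 HIF subunit and oxygen-sensing genes (coloured bars, 1 colour per line) and of all protein-coding genes (grey bars) with a HIF1A peak within 10 kb of the gene record, for each merged normoxia and hypoxia list. Between 5 and 7 of the 10 genes had a peak in each hypoxia list, and at most 1 had one in a normoxia list.

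The signal of a peak is given as its normalized tag count, the tags in the peak per 10 M tags of the merged library (1 M is 1000000). Libraries held between 41.2 M and 81.5 M tags, and the weakest peak of a list held between 11 and 20 tags. Intervals are exact Poisson 95% intervals of the tags, and cover counting error only. The fold over input that a peak had to exceed was 7 for HCT116, 6 for RKO, 13 for A549 and 14 for H460, so the lists were not called at 1 threshold. The tags at a site absent from a list were not used here, so an absent call sets no value.

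The sites were grouped by the number of lists that called them. In hypoxia 3 sites were called in all 4 lines (EGLN1 site 1, EGLN3 site 3 and HIF1A site 1), 1 in 3 lines, 1 in 2 lines and 17 in 1 line, and the remaining 2 were called only in normoxia. The 17 peaks at sites called in 2 or more lines are 5 sites counted in 2 to 4 lists, so they are not independent. They ran from 7.32 to 80.3 tags per 10 M, with a median of 38.9, and all 17 were above the median of their list. The 17 peaks at sites called in 1 line ran from 2.69 to 20.8, with a median of 4.72, and 10 were above the median of their list. The ranges overlapped, and a strong site passes the threshold of more lists, so part of this difference is built into the grouping. The 3 sites called in all 4 lines belonged to the 232 regions that all 4 hypoxia lists shared.

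**Figure D2:**
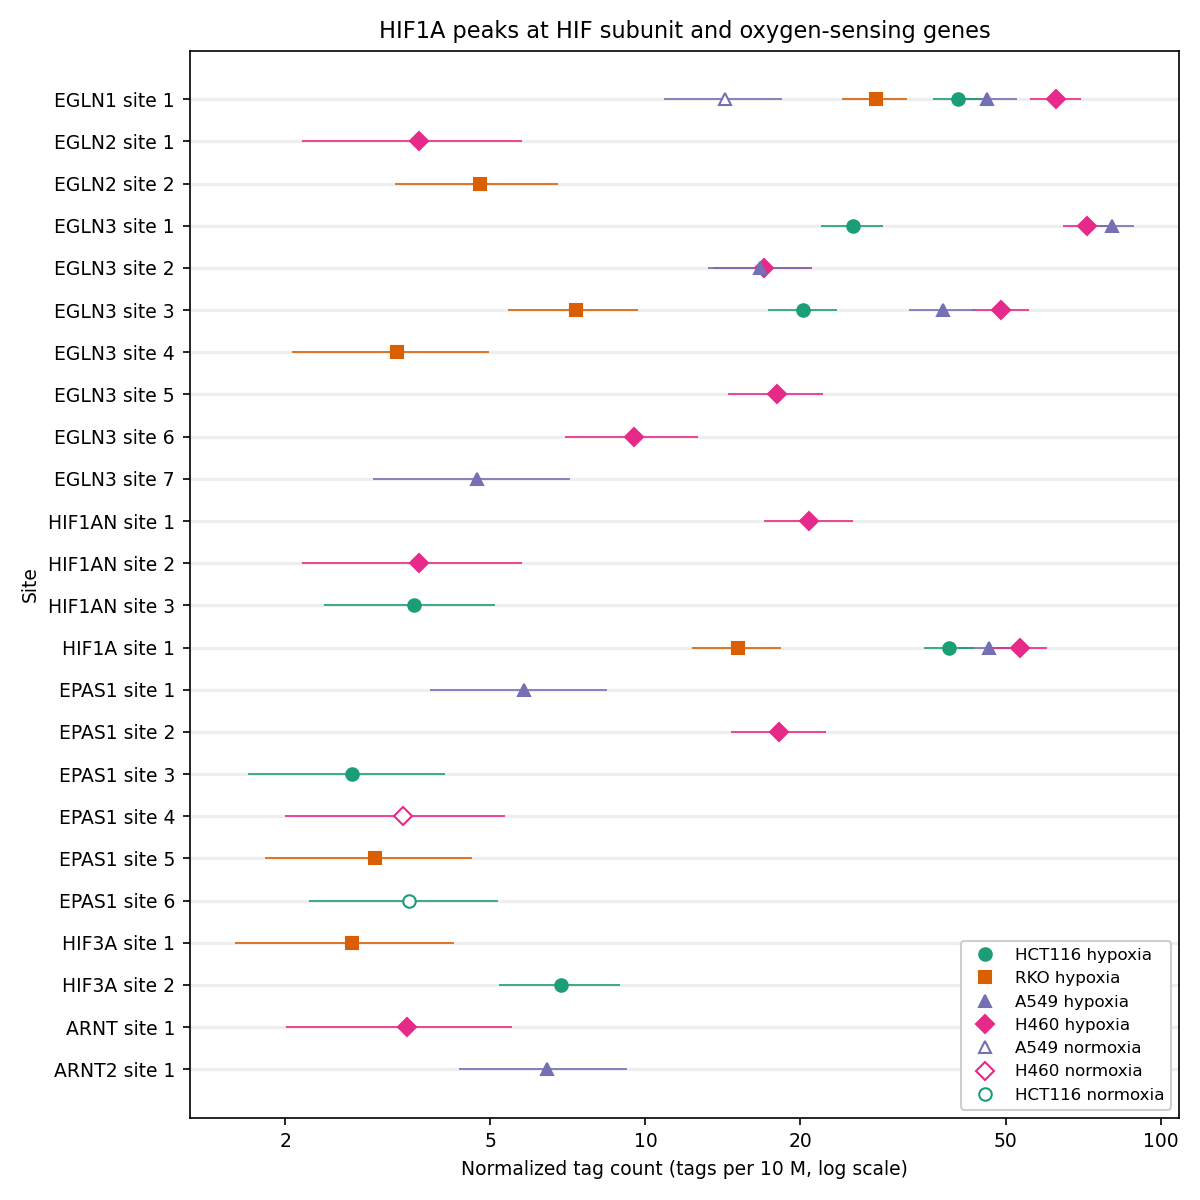
Normalized tag count (tags per 10 M, log axis) of each of the 24 sites at the HIF subunit and oxygen-sensing genes, with filled symbols for hypoxia lists, open symbols for normoxia lists and bars for exact Poisson 95% intervals. The EGLN1 site, EGLN3 sites 1 and 3 and the HIF1A site hold every value above 20.8 tags per 10 M, and EPAS1 has 6 sites of 1 list each.

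Of the hydroxylases, EGLN1 (PHD2), the main prolyl hydroxylase for HIF1A in most cells, carried its peak at its start. In normalized tag count in hypoxia, HCT116 held 40.4 (36.1 to 45.0), RKO 28.0 (24.1 to 32.3), A549 46.0 (40.0 to 52.5) and H460 62.7 (55.9 to 70.1). H460 was highest and RKO lowest, and the intervals of HCT116 and A549 overlapped. Divided by the median of the 232 shared regions in each list the order turned, to 3.42 in HCT116, 2.86 in RKO, 2.32 in H460 and 2.00 in A549. The peak ranked between 18 and 62 from the top of its lists and stood above 98.8% to 99.7% of the peaks of each list. The peaks together spanned chr1:231557942-231558116 and touched the 5′ UTR of EGLN1, and the one motif copy was centred 11 bp upstream of the start. The 200 bp at the peak centre were 82.5% to 83.5% G or C in the hypoxia lists, whose medians ran from 44% to 62.5%.

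EGLN1 was also the only one of these genes with overlapping peaks in both conditions of a line. In A549 the normalized tag count was 14.3 in normoxia (10.9 to 18.5) and 46.0 in hypoxia, from 59 and 214 tags. The hypoxia library was higher by a ratio of 3.21 (95% interval 2.40 to 4.36, exact conditional binomial test with Benjamini-Hochberg adjustment over the 175 shared peaks of A549, adjusted p = 2.86e-17). With the peak widths of 144 and 140 bp included, the ratio was 3.30. The test sets 1 merged library against another and says nothing of the spread within a condition. Of the 175 shared A549 peaks 73.1% were higher in hypoxia by the same test, the median ratio was 2.41, and 64.0% of the peaks had a smaller ratio than EGLN1. In HCT116, RKO and H460 the EGLN1 site was called in hypoxia and not in normoxia.

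EGLN3 (PHD3) is a prolyl hydroxylase whose expression is known to rise in hypoxia. It held 13 of the 34 hypoxia peaks (38.2%), at 7 sites, and no normoxia peak. Its gene record runs 539 kb, from position 34393433 to 34931980 on the minus strand of chromosome 14, while the canonical transcript covers the last 26.8 kb. Only EGLN3 site 1 lay in the canonical transcript, in an intron 12.6 kb downstream of the canonical start. All others were upstream of that start, in introns of longer EGLN3 transcripts.

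At EGLN3 site 1, in normalized tag count, HCT116 held 25.3 (21.9 to 29.0), A549 80.3 (72.4 to 88.9) and H460 71.8 (64.5 to 79.6), and RKO had no peak there. A549 and H460 overlapped in their intervals and both lay above HCT116. It was the strongest peak of the 10 genes in A549 and in H460, at ranks 16 of 5408 and 23 of 3877. The RKO hypoxia list, in which it was absent, had the lowest minimum of the hypoxia lists, at 1.94 tags per 10 M. A call also had to pass the folds over input and the local region. The RKO tags at this site were not read, so the reason for the missing call was not tested.

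EGLN3 site 3 lay 109 kb upstream of the canonical start, just past the end of the antisense transcript EGLN3-AS1. HCT116 held a normalized tag count of 20.2 there (17.3 to 23.6), RKO 7.32 (5.42 to 9.68), A549 37.8 (32.4 to 43.8) and H460 48.9 (43.0 to 55.5). It varied over lines by 6.68-fold, against 2.24-fold at EGLN1 and 3.54-fold at HIF1A. Divided by the median of the shared regions these spreads were 2.42-fold, 1.71-fold and 2.14-fold. EGLN3 site 2, 4.29 to 4.33 kb before the start of EGLN3-AS1 and 84.7 kb upstream of the canonical EGLN3 start, held 16.7 in A549 and 17.0 in H460, which did not differ beyond their intervals (13.2 to 20.9 and 13.5 to 21.0). Of the EGLN3 sites called in 1 line, the strongest was site 5 in H460 at 18.0 (14.5 to 22.1), 113 kb upstream. The other 3, 1 each in RKO, A549 and H460, held 3.29 to 9.50 and lay 111 to 189 kb upstream.

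Because a long record gathers more peaks, EGLN3 was set beside all 280 protein-coding genes with a record at least as long. Their median number of hypoxia sites was 3, and 40 of them, EGLN3 included, had at least 7. For sites called in 2 or more lines the median was 0, EGLN3 had 3, and RAD51B was the only other gene with as many. In a window 10 kb to either side of the canonical transcript, chosen after the values were seen, EGLN3 kept 3 peaks, all at site 1, and had no RKO peak.

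**Figure D3:**
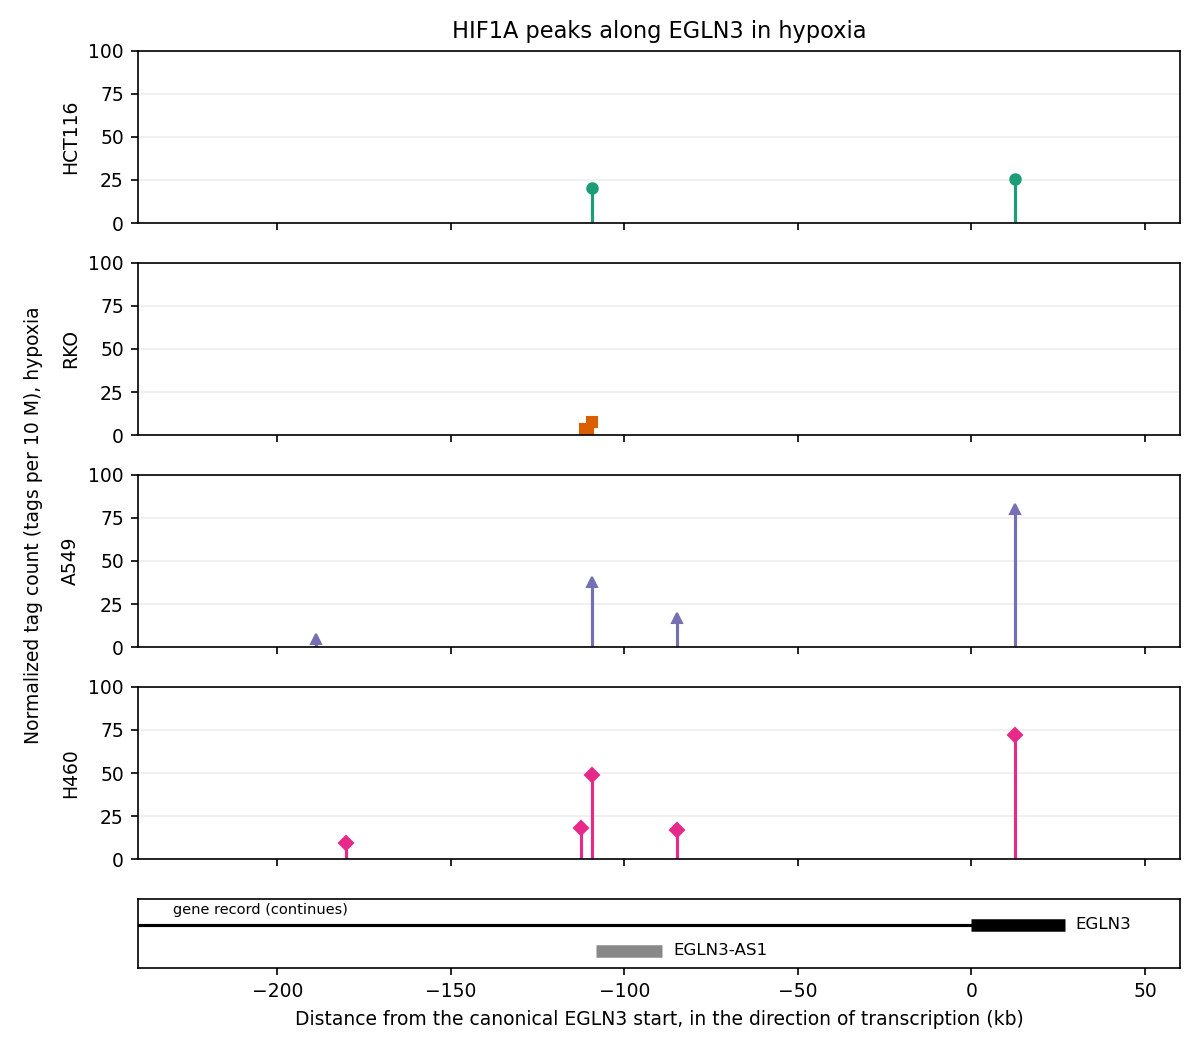
Normalized tag count (tags per 10 M) of the EGLN3 hypoxia peaks in the 4 lines, by distance from the canonical EGLN3 start in kb in the direction of transcription, above the canonical transcript (thick black), the rest of the gene record (thin black) and EGLN3-AS1 (grey). The site 12.6 kb into the transcript is tallest in HCT116, A549 and H460 and absent in RKO, and the site 109 kb upstream is present in all 4.

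EGLN2 (PHD1), a prolyl hydroxylase, had 1 peak in each of RKO and H460, at sites that did not overlap. The stronger, in RKO, held 4.78 tags per 10 M (3.27 to 6.75) and stood above 89.8% of its list, and its centre was 33 bp upstream of the canonical start, over the palindrome CACGTG. The H460 peak held 3.64 and was weaker than most of its list, with 9.29% of peaks below it. Both lie in the readthrough gene RAB4B-EGLN2 as well, so they cannot be assigned to EGLN2 alone.

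HIF1AN (FIH) had 2 peaks in H460 and 1 in HCT116. The strongest, HIF1AN site 1 in H460, held 20.8 (17.0 to 25.3), but its centre was 45 bp from a start of NDUFB8, a subunit of respiratory complex I, whose UTR it touched. It lay 6.02 kb upstream of the canonical HIF1AN start. The other pair held 3.64 in H460, 125 bp upstream of that start, and 3.56 in HCT116, 9.10 kb past the gene.

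VHL, the receptor that binds hydroxylated HIF-α, had no peak in any of the 8 lists. The nearest hypoxia peaks outside its window were a weak one in A549, 12.2 kb past its end with 3.22 tags per 10 M, and a pair 26.3 kb before its start in RKO (6.28) and H460 (15.8), which lay 176 to 177 bp from the start of BRK1, a component of an actin-regulating complex. Just inside the limit of 10 kb the most distant peak was that of HIF1AN in HCT116, at 9.10 kb.

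Of the α subunits, HIF1A itself had no peak at its start and 1 site past its end. HCT116 held a normalized tag count of 38.9 at this site (34.7 to 43.4), RKO 15.1 (12.3 to 18.3), A549 46.4 (40.4 to 53.0) and H460 53.4 (47.1 to 60.2). RKO was lowest, and the intervals of H460 and A549, and of A549 and HCT116, overlapped. The peak stood above 98.4% to 99.5% of the peaks of each list. Its centre was 2.91 to 2.93 kb past the end of HIF1A and 6 to 22 bp from a start of HIF1A-AS3, a noncoding RNA on the opposite strand whose record overlaps HIF1A. SNAPC1, the nearest protein-coding start, was 11.2 to 11.3 kb away.

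Within a list, the tags at 2 sites share a library, so their ratio needs no scaling for depth. The tags were not corrected for the input at each site. EGLN1 held 1.04 times the tags of the HIF1A site for HCT116 (0.887 to 1.21), 0.991 times for A549 (0.816 to 1.20) and 1.17 times for H460 (0.993 to 1.39). In RKO it held 1.85 times (1.45 to 2.38), an interval above that of each other line. By fold over input the RKO order was reversed, with 35.1 at EGLN1 and 56.8 at the HIF1A site, on 3 and 1 input tags. In HCT116, A549 and H460 the fold over input was higher at EGLN1. EGLN1 against EGLN3 site 3 gave 3.82 in RKO (2.77 to 5.34), and 1.99, 1.22 and 1.28 in HCT116, A549 and H460, again with RKO highest. EGLN3 site 1 against site 3 gave 1.25 for HCT116 (1.01 to 1.54), 2.13 for A549 (1.77 to 2.56) and 1.47 for H460 (1.24 to 1.73).

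EPAS1 (HIF2A), the second major α subunit, had 1 hypoxia peak in each line, but no line shared a site with another. The strongest was EPAS1 site 2 in H460 with 18.2 tags per 10 M (14.6 to 22.4), in an intron 23041 bp downstream of the canonical start. The others held 2.70 in HCT116, 2.99 in RKO and 5.80 in A549, and were also intronic, 17.9 to 56.4 kb downstream. The normoxia peaks, 3.47 in HCT116 and 3.38 in H460, were at 2 further intronic places. All peaks but that of H460 hypoxia held fewer than 7 tags per 10 M, so the count of 4 lines for this gene describes 4 separate places.

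HIF3A, an α subunit with isoforms that restrain the others, had a peak of 6.87 (5.19 to 8.92) in HCT116 in an intron 2.13 kb downstream of its start, and 1 of 2.69 in RKO 7.50 kb upstream. Of the partner subunits, ARNT had 1 peak of 3.44 (2.00 to 5.50) in H460, 6.02 kb into the gene. ARNT2 had 1 of 6.44 (4.35 to 9.20) in A549, 89.9 kb into the gene. All 4 stood at single sites in single lines, and no normoxia peak was found at these 3 genes.

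The motif was not used to choose the peaks, and was searched as ACGTG or GCGTG on both strands in the 200 bp at each peak centre. It was present in 27 of 34 hypoxia peaks (79.4%), beside 65.1% of all peaks of the HCT116 hypoxia list, 30.5% for RKO, 52.4% for A549 and 76.9% for H460. The 34 peaks are not independent, since a site can be counted in up to 4 lists, and with each site once 15 of 22 had a copy (68.2%, Wilson 95% interval 47.3 to 83.6). Windows 2000 bp to either side of all hypoxia peaks held it in 19.5% to 24.2%. By line, H460 had it in 11 of 12 peaks of these genes, HCT116 in 6 of 7, A549 in 6 of 8 and RKO in 4 of 7. The control motif ACGAG or GCGAG, of equal GC content, was present in 13 of the 34 (38.2%), beside 43.4% of the HCT116 hypoxia list, 19.7% for RKO, 27.1% for A549 and 41.2% for H460. The 7 peaks without a copy held 2.69 to 6.44 tags per 10 M, and every peak above that had one. Peaks with a copy ran from 2.70 to 80.3, so the ranges overlapped. Both normoxia peaks of EPAS1 were without a copy.

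In the printed sequences, EGLN3 sites 1 and 3, HIF1A site 1 and EPAS1 site 2 each hold a pair of copies in a short stretch. Their first bases were 9 bp apart at EGLN3 site 1, on the same strand, and 12, 11 and 13 bp apart at the others, on opposite strands. A pair of copies that did not overlap and began within 15 bp of each other, a limit set after these spacings were seen, was present in 12 of 34 hypoxia peaks (35.3%). Among all hypoxia peaks it was present in 12.4% for H460, 10.3% for HCT116, 6.62% for A549 and 3.40% for RKO. The 12 peaks are 4 of the 22 hypoxia sites, counted in up to 4 lists, so they are not independent. The limit was set to take in these spacings, so the difference from the shares over all peaks is partly built in. EGLN1 had a single copy and no such pair.

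**Figure D4:**
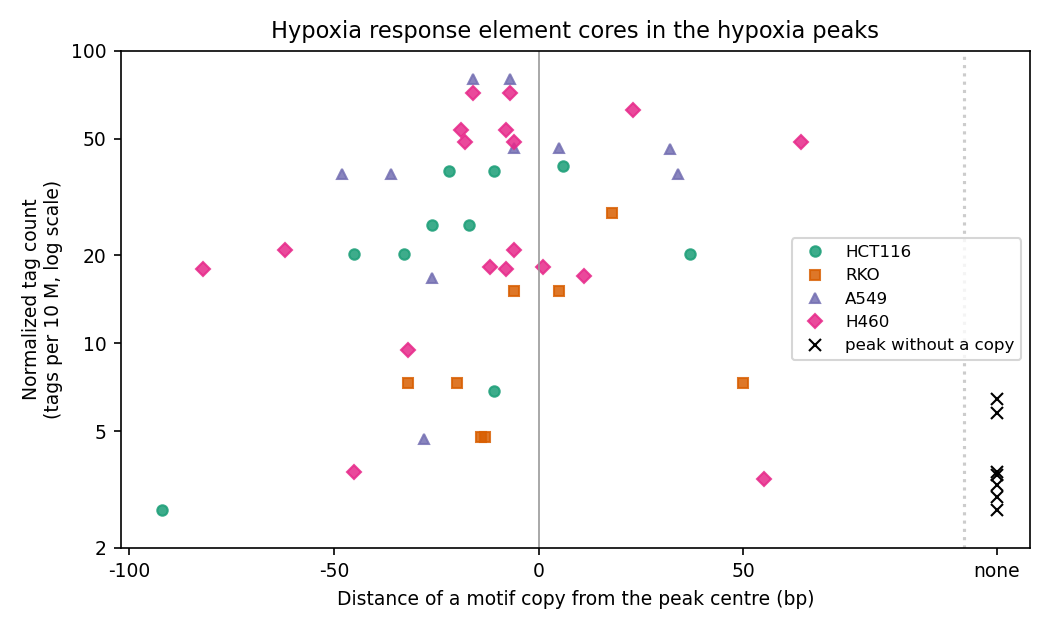
Distance in bp of each hypoxia response element core from the centre of its peak, against the normalized tag count of the peak (tags per 10 M, log axis), for the 34 hypoxia peaks, coloured by line. Peaks without a copy are crosses at the right and lie at 2.69 to 6.44 tags per 10 M, and 18 of the 27 peaks with a copy have one within 25 bp of the centre.

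In the promoter sequences of RefSeq on GRCh38.p14, from 250 bases before to 50 after a start, 8 of the 10 genes were matched. A copy was present at a start of 5 of them, EGLN1, EGLN2, HIF1A, EPAS1 and HIF3A, some of which have several starts. Counted by promoter it was present in 5 of 12 (41.7%), beside 48.4% of all 35116 promoters. Of the 5 genes, EGLN1 and EGLN2 had a hypoxia peak centred within 33 bp of their canonical start, while the nearest centres assigned to the other 3 lay 55.7 kb from that of HIF1A, 17.9 kb from that of EPAS1 and 2.13 kb from that of HIF3A.

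For each gene with a peak in all 4 hypoxia lists, the other protein-coding genes most like it were sought, by the distance over the 4 lists between log2 normalized tag counts of the strongest peaks, among 656 genes. Nearest to EGLN1 were PNRC1 (0.29), ZNF292 (0.39) and P4HA1 (0.55), the last a collagen prolyl hydroxylase. Nearest to HIF1A were FAM162A and MIX23 (both 0.39, from 1 shared peak) and LMNTD2 (0.57). Nearest to EGLN3 were SH2D4B and TSPAN14 (both 0.74, from 1 shared peak) and MYL4 (0.92). Nearest to EPAS1 were CYP27B1 (0.28), MIDEAS (0.43) and DNASE1L1 (0.48). The EGLN3 values join site 3 in RKO with site 1 in the other lines, and the EPAS1 values join 4 separate sites. The points are 4 lists with unequal thresholds and depth, so these values only describe likeness of signal.

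Of 34 other genes of the pathway, listed by role, 33 were annotated. In at least 1 hypoxia list 23 of them (69.7%) had a peak, in all 4 lists 3 (9.09%) did, and in normoxia 10 had one in at least 1 list, beside 51.7%, 3.26% and 13.1% of protein-coding genes. The 3 were WSB1, CREBBP and the noncoding HIF1A-AS3, whose peaks are those of the HIF1A site. Without the HIF1A antisense RNAs 22 of 31 (71.0%) had a peak in at least 1 hypoxia list and 2 (6.45%) in all 4. Of the VHL ligase subunits and their modifier 5 of 5 had a hypoxia peak, and 4 had a normoxia peak in at least 1 list. The strongest hypoxia peaks were at RBX1, the RING subunit, 230 to 249 bp upstream of its start. They held 6.13 in HCT116, 15.2 in A549 and 10.7 in H460. An overlapping RBX1 peak was also called in A549 normoxia, at 4.12. At ELOC, ELOB, NEDD8 and CUL2 the strongest hypoxia peak of each list held 2.70 to 4.48. Of the genes for turnover of HIF, the EGLN enzymes or VHL 10 of 12 had a hypoxia peak. SIAH2, a ligase for EGLN3, had 18.8 in HCT116, 9.42 in RKO and 21.6 in H460, within 30 bp of its start. WSB1, a ligase that targets VHL, had 15.7 in HCT116, 12.1 in RKO and 40.0 in H460 within 131 bp of its start, and in A549 a different peak of 3.01. Of the coactivators 1 of 4 had a peak (CREBBP, 2.99 to 4.65). The strongest CREBBP peaks of the 4 lines did not overlap. They lay from 96 bp upstream of its start in H460 to 163237 bp downstream in HCT116. CITED2 and CITED4, which compete with HIF for coactivators, both had a hypoxia peak. Of the other bHLH-PAS factors 4 of 7 had one, and P4HTM, a membrane-bound relative of the hydroxylases, had none.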

How the data were processed

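The deposited files are 8 HOMER peak lists. Per the submitters' processing notes and the study's methods, the authors aligned reads to GRCh37 with Bowtie2 (2.2.9), merged replicates and called peaks with HOMER (4.3) against input, with a fold of 3 over the local 10 kb and a false discovery rate of 0.001. The deposited normalized tag count is a signal per 10 M tags, which removes depth but not differences in immunoprecipitation efficiency or peak width. The authors' tag columns are scaled to the smaller library, and the deposited fold ratio over input and over the local region was used to filter, and its levels over lists were compared with each other. The deposited HOMER fraction of tags on the strand expected on either side of a peak was not used for any result. The members and lists were chosen with earlier results of these data known.

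Unscaled tags were the normalized tag count times the library total, and their sums equalled the header values in all 8 lists. Overlap required 1 bp. All 10 genes are named. Sites called in 2 or more hypoxia lists, or in both conditions of a line, are given with every value, and of the rest the strongest of each gene, others as counts and ranges. Single values named beyond this, and the examples among the other pathway genes, were chosen after their values were seen. The line was the unit of replication. Python 3.11.15, pandas 2.3.3, numpy 2.4.6 and scipy 1.17.1 were used, and the conditional binomial test was tested on simulated data. Alternatives were other windows and thresholds, leaving out a line, and other motif windows.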

Additional observations from a re-analysis of the deposited data

Results flagged for a closer look

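For 13 measures the 4 hypoxia or the 4 normoxia lists were compared with each other, and 3 were marked because the gap of 1 list to the nearest of the others, divided by the whole range, exceeded Dixon's 95% critical value for 4 values. Chance marks about 1 in 20 such groups where values are continuous, which small counts are not.

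At EGLN3 site 3 the normalized tag count divided by the median of the 232 regions common to all hypoxia lists was 0.747 in RKO, 1.64 in A549, 1.71 in HCT116 and 1.81 in H460, and the gap of RKO was 0.842 of the range. The same quotient was 2.86 in RKO at EGLN1, within the range of the other lines (2.00 to 3.42), and 1.54 at the HIF1A site, where it was the lowest of the 4 without being marked.

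The number of peaks at these genes in the normoxia lists was 1 in HCT116, A549 and H460 and 0 in RKO. The number of genes with a peak was the same, so the gap was 1 of the range for both. Where counts are only 0 or 1, a single differing list always gives this gap. Both marks rest on the same values, so they do not show that RKO was unusual.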

How the results depend on the processing

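Of 40 values from alternative settings, 39 kept the direction of the main value and stayed within 1.5 times a main count, within the counting interval of the motif share (63.2 to 89.7) or on its side of the threshold. With no margin around the gene records 2 genes, EGLN3 and EPAS1, had a peak in all 4 hypoxia lists. In hypoxia the EGLN1 centre lay outside its record only in HCT116, by 5 bp. The HIF1A centre lay 2.91 to 2.93 kb past its record in all 4 lines. The other settings gave 3 or 4 genes. A window on the canonical transcripts, chosen after seeing the data, gave 3, without EGLN3. The number with a peak in at least 1 line ran from 7 with a fold over input of at least 14 to 10 with a window of 50 kb, which takes in VHL. The mean difference between conditions ran from 3.50 to 5.75 genes, and leaving out each line gave 5.00 to 5.67 (p = 0.25 in the exact permutation test by sign, which can give no smaller p with 3 lines). The EGLN1 call in A549 held in 4 of 4 alternatives. The motif share ran from 68.2% with each hypoxia site counted once (15 of 22) to 76.5% over the peak as deposited. The spread over lines, scaled to the shared regions after seeing the data, moved by over 1.5 times at EGLN3 site 3 and HIF1A and by less at EGLN1.

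No paired analysis was possible because, by replicate number, each list pools both replicates of its group. Conditions were paired by line only, and leaving out a replicate was not run since no list holds 1 replicate alone. The weakest peaks of these lists hold 11 to 20 tags, so their intervals are wide and a missing call does not show that HIF1A was absent.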
